A study of Rattus norvegicus with 18 samples.

Results

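T cells of rats that carried a heart allograft were compared with and without cyclosporine on days 1, 3 and 7 after transplantation. Each treatment and day was measured on 1 expression array, so the comparison rests on 6 of the 18 arrays of the series, 3 untreated and 3 from cyclosporine-treated recipients, set against each other by day. The 6 arrays were picked out by their sample titles. Per the protocols, the animals were adult male inbred Wistar Furth and ACI rats, and all recipients, the untreated ones included, carried a heart graft placed in the abdomen. The protocol names Wistar Furth hearts and ACI recipients where it describes the peptide group. The untreated recipients received no drug. The cyclosporine recipients received 10 mg/kg/day by mouth on days 0 to 2, a course described as below the therapeutic dose and labelled as a group with acute rejection. The day 1 arrays therefore fall within the course, and the arrays of days 3 and 7 fall after its last dose on day 2. A further 3 T cell arrays came from recipients that had the same course and, at transplantation, an allochimeric class I peptide (1 mg/kg, through the portal vein). The other 9 arrays came from the grafts. Wistar Furth is the strain given for every sample, T cells included, which leaves the strain of the T cells unsettled. The labels do not name the organ the T cells came from, how they were purified, or whether RNA was pooled or animals shared, so the p-values measure only the spread between these samples.

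Cyclosporine binds cyclophilin inside the cell, and the complex inhibits calcineurin, the phosphatase that a calcium signal from the T cell receptor switches on. Calcineurin removes phosphates from NFAT transcription factors, which then enter the nucleus and take part in inducing interleukin 2, interferon gamma, CD40 ligand and other activation genes. Activated T cells that receive these signals enter the cell cycle, and in acute rejection such clones expand in lymphoid tissue and infiltrate the graft.

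The arrays carried the transcripts that define T cells. Signal for Cd3e, which encodes CD3 epsilon, ran from 8328 to 9739 over the 6 arrays. They also carried transcripts of other cells, with Ms4a1, the B cell gene for CD20, at 9721, 3155 and 3554 on days 1, 3 and 7 without treatment and at 4197, 4582 and 3766 with cyclosporine. Cd5l, a gene of tissue macrophages, was at 11333, 9071 and 8225 untreated and at 5127, 5417 and 4556 treated, and Hbb, a beta globin gene, was high on every array, between 13577 and 15849.8. In mixed RNA of this kind, fewer cells of a type and less RNA per cell cannot be told apart. Of 15 heart muscle genes with a probe set, 12 did not pass the filter on low signal, and their summed intensity was between 803 and 935 in each of the 6 arrays. The untreated day 1 array stood apart: its log2 intensities correlated at 0.967 to 0.977 with the 5 other arrays, while the other 10 pairs correlated at 0.984 to 0.989. The summed signal of 19 neutrophil genes was 77032 on that array against 9133 to 15985 on the other 5, and the summed signal of 15 B cell genes was 54068 against 19352 to 26333. Ratios of 3' to 5' signal, a sign of RNA quality, did not separate the groups, at 1.27 to 1.33 for beta-actin and 1.45 to 1.6 for GAPDH. Results are therefore given over all 3 days and again without day 1.

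**Figure D1:**
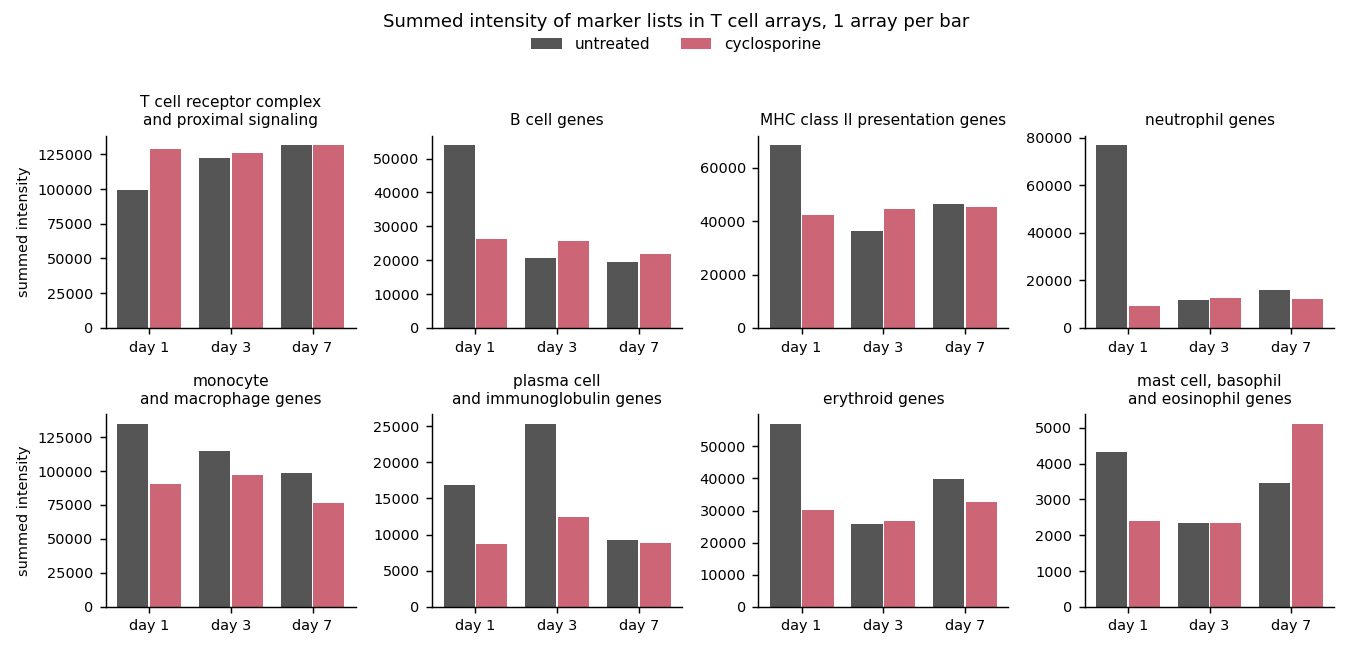
Summed intensity of the measured members of 8 cell marker lists on each of the 6 T cell arrays, by day, for untreated (grey) and cyclosporine (red) recipients; each bar is 1 array and the vertical scale differs between panels. The untreated day 1 array stands above the others for neutrophil, B cell, MHC class II and erythroid genes, and the untreated day 3 array for plasma cell genes.

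No single gene passed the test between cyclosporine-treated and untreated T cells. Differences are given on the log2(intensity + 16) scale as cyclosporine minus untreated, and a mean over the 3 days carries ± the SE of limma's fit with day as a factor (n = 3 same-day differences). That SE rests on the residual spread of all 9 T cell arrays, the 3 with peptide included. It is not the spread of the 3 same-day differences. Of 19464 probe sets above the filter on low signal, 0 passed a Benjamini-Hochberg adjusted p of 0.05, that is 0%, and 2216 had an unadjusted p below 0.05, where 5% of those tested is 973.2. Without day 1, 0 of 18906 passed (0%), and before adjustment 1864 were below 0.05 where 5% is 945.3. The lowest adjusted p over 3 days was 0.167, for Cd7. With each array centred on its median, Np4 and Cd7 passed on days 3 and 7, with adjusted p = 0.0353 for both by limma. When only the 4 untreated and cyclosporine arrays of days 3 and 7 were fitted, 19 of 18256 probe sets passed, 3 higher and 16 lower. That fit leaves 1 residual degree of freedom and was chosen after seeing the data. Those 19 represent 15 named genes and 2 unnamed probe sets. Of the genes, 4 (Cd14, Cd5l, Cd163 and Slc40a1) belong to the monocyte and macrophage list, which holds 25 of the 14217 genes with a probe set. These 4 genes account for 6 of the 19 probe sets. Because no gene passed in the fit over all T cell arrays, what follows describes levels, sizes and counts, and uses higher and lower for the direction of a value, not for a test result.

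The differences were largest on day 1. Of 14217 genes with a probe set, 540 were at least 1 lower and 52 at least 1 higher with cyclosporine on day 1, against 100 and 38 on day 3 and 70 and 31 on day 7. Genes were then counted by the size of their difference on each day. On all 3 days, 372 genes (2.62%) were at least 0.3 lower and 78 (0.549%) at least 0.3 higher. With each array centred on its median the counts were 269 lower and 144 higher. On days 3 and 7 alone, 559 genes (3.93%) were at least 0.3 lower and 299 (2.1%) at least 0.3 higher. By sign alone, 16% of genes were lower and 23% higher on all 3 days. The 3-day mean was lower for 6158 of the 14217 genes and higher for 8057. The groups of genes below are read against these shares. Groups of arrays are said not to overlap where every untreated array was above, or below, every treated array. The share of all genes with such an order was not counted, so lack of overlap describes a gene and is not a test.

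**Figure D2:**
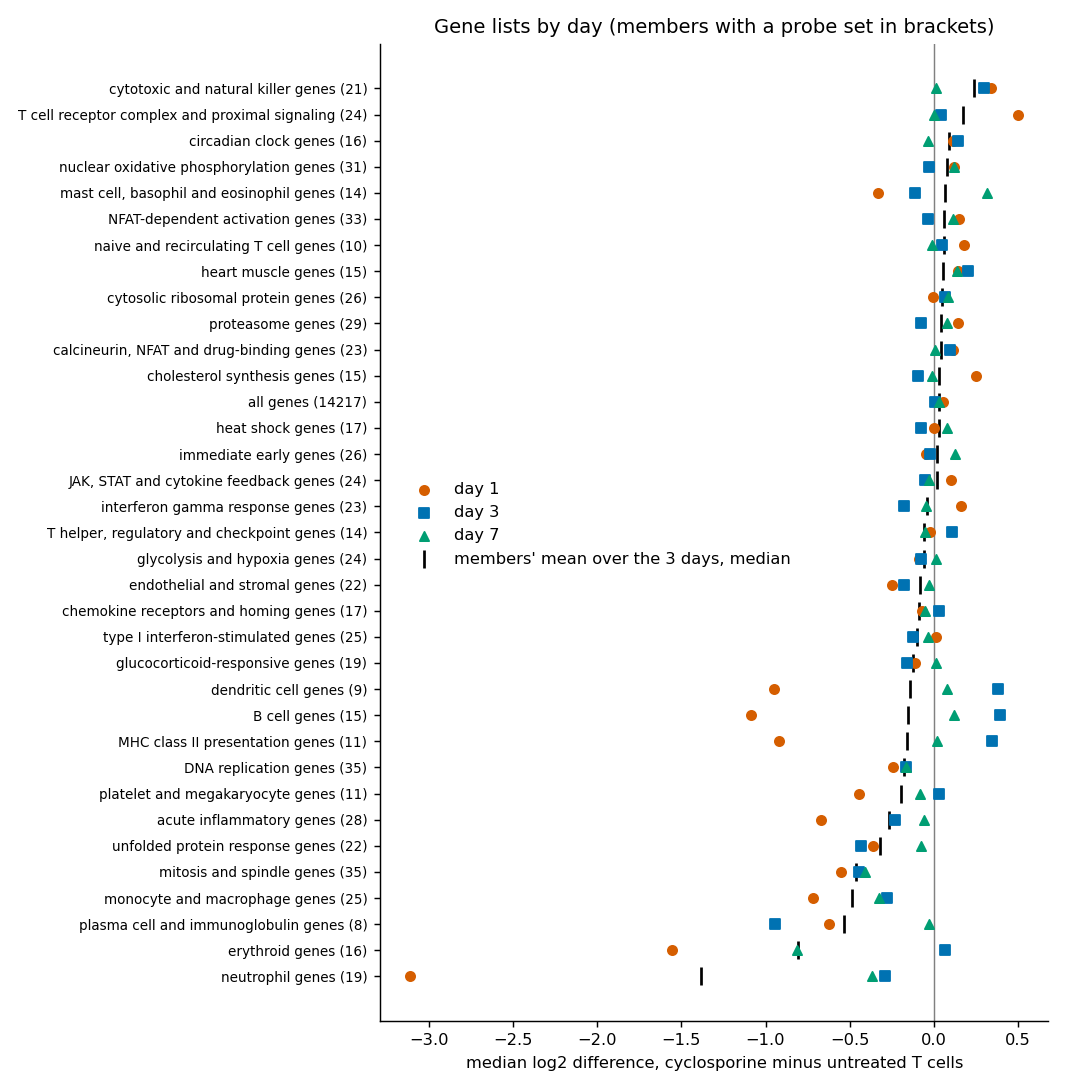
Median log2 difference, cyclosporine minus untreated T cells, of the members of 34 gene lists and of all 14217 genes, on day 1 (circles), day 3 (squares) and day 7 (triangles); the black bar is the median of the members' 3-day means and the number of measured members stands in brackets. Neutrophil genes lie far to the left on day 1 at -3.11 and near the other lists on days 3 and 7, while mitosis and spindle genes lie between -0.55 and -0.41 on all 3 days.

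Transcripts of mitosis were lower in the cyclosporine-treated T cells on every day. Of 37 mitosis and spindle genes, 35 had a probe set, and all 35 had a lower 3-day mean with cyclosporine. On all 3 days 33 of them were lower, where 16% of all genes were. At least 0.3 lower on all 3 were 22 of the 35, where 2.62% of all genes were. On days 3 and 7 alone, 24 of the 35 were at least 0.3 lower, against 3.93% of all genes. The list's median difference was -0.46 over the 3 days, with -0.55 on day 1, -0.45 on day 3 and -0.41 on day 7, while the median of all genes was 0.03. The filter kept 33 of the 35, of which 0 passed the adjusted threshold and 31 had an unadjusted p below 0.05. In the same direction, 690 of 10398 genes tested had an unadjusted p below 0.05.

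Mki67, which encodes the proliferation marker Ki-67, had intensities of 939, 1441 and 1491 on days 1, 3 and 7 without treatment and 484, 972 and 849.7 with cyclosporine. Each cyclosporine array was below the untreated array of its day, although the groups overlapped because the treated day 3 array was above the untreated day 1 array. Its mean difference was -0.76 ± 0.13 (adjusted p = 0.343), and without day 1 it was -0.68 ± 0.10 (adjusted p = 0.43). Cdk1, the kinase that drives entry into mitosis, was at 779, 1393 and 1232 without treatment and at 450.0, 948 and 938 with cyclosporine. Here too every treated array was below its same-day counterpart, with a mean difference of -0.57 ± 0.12. Its partner cyclin B2 (Ccnb2) was at 614, 1337 and 1352 untreated and at 388, 928 and 1065 treated, a difference of -0.50 ± 0.13. In both groups these transcripts were lowest on day 1, and on that day the treated arrays were the lowest of all 6.

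Genes of the spindle checkpoint showed the same order. Bub1b, a checkpoint protein that delays chromosome separation, was at 162, 326 and 288 untreated and at 34.6, 177 and 168 treated, with a mean difference of -1.12 ± 0.26. Bub1, a kinase of the same checkpoint, was at 506, 961 and 853 untreated and at 272, 627 and 599.8 treated (-0.65 ± 0.12). The treated day 1 array of Bub1b was the lowest, so the gene's difference on that day (-1.81) was larger than those of days 3 and 7 (-0.82 and -0.72). That array was below the bar of the filter on low signal, the 40th percentile of its array. The size therefore depends on the constant added before the log, with a mean of -1.28 at a constant of 1 and -0.83 at 64. Among genes of cell separation, Racgap1, a regulator of the contractile ring, was at 571, 1189.7 and 1234 untreated and at 341, 720.0 and 823 treated (-0.67 ± 0.15), and Prc1, which bundles midzone microtubules, was at 589, 866 and 874 untreated and at 303, 627 and 596 treated (-0.64 ± 0.14). Top2a, the topoisomerase that untangles sister chromatids, was at 928, 1510.4 and 1481 untreated and at 559, 1126 and 968 treated (-0.58 ± 0.13). Aurka, a spindle pole kinase, did not keep a difference to day 7: it was at 374, 599 and 531 untreated and at 259.8, 435 and 526 treated, nearly level on the last day. Stmn1, a regulator of microtubules that is abundant in lymphocytes, was the member closest to 0, at 3368, 5167 and 5319.6 untreated and at 3312, 5303 and 4822 treated (-0.04 ± 0.09).

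**Figure D3:**
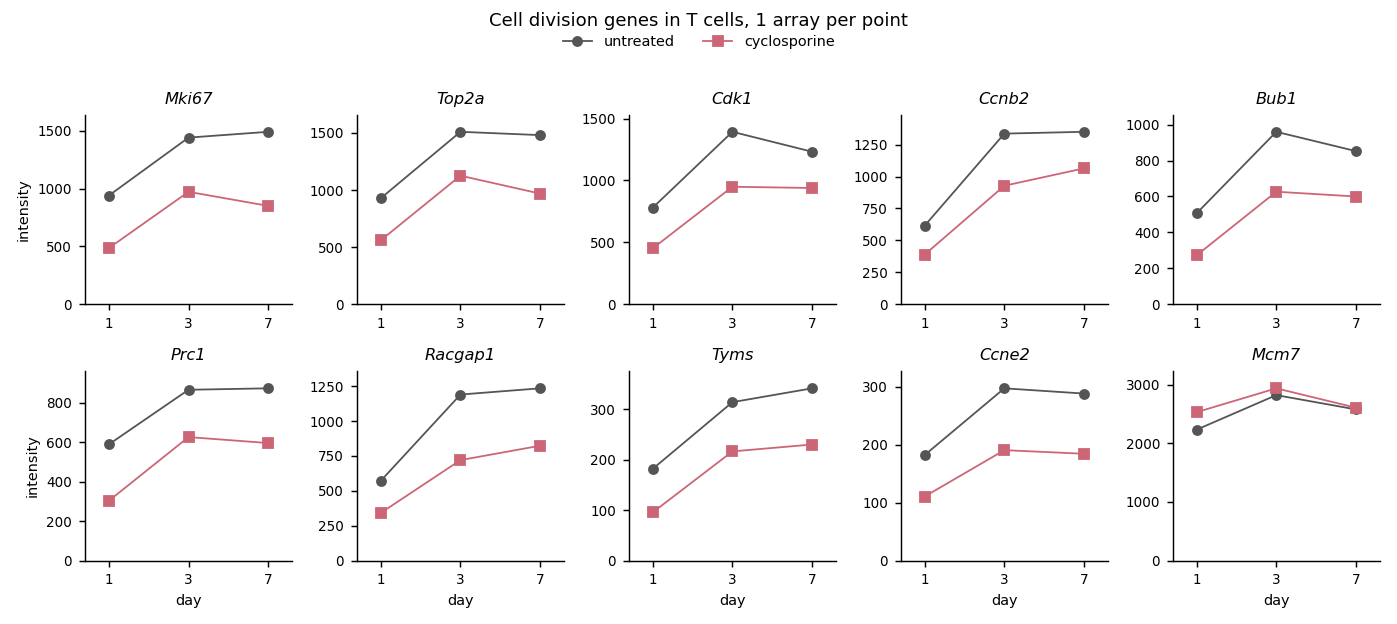
Intensity of 10 genes of cell division in T cells on days 1, 3 and 7, with 1 array per point, for untreated (grey circles) and cyclosporine (red squares) recipients; each vertical axis starts at 0. Untreated arrays lie above cyclosporine arrays on every day for 9 of the genes, and for Mcm7 the cyclosporine arrays lie level with or above the untreated ones.

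Many mitosis genes share 2 short promoter elements, the CHR (cell cycle genes homology region) and the CCAAT box, which is bound by NF-Y and in such genes often stands next to a CHR bound by the DREAM and MuvB complexes. The members' promoters were therefore searched for them, in the 250 bases before the start given by RefSeq (build GRCr8), on both strands, as TTTGAA for the CHR, which on the other strand reads TTCAAA, and as CCAAT for the box, which on the other strand reads ATTGG, with overlapping matches each counted. Of the 35 mitosis genes 29 matched the table by symbol, with 30 windows, of which 14 (46.7%) held a CHR, 23 (76.7%) a CCAAT box and 14 (46.7%) both. Among all 33469 windows of that length, 16.2% held a CHR, 34% a CCAAT box and 5.87% both. Among 34 windows of 31 DNA replication genes, 5.88% held a CHR, 52.9% a CCAAT box and 0 both. A match is a run of letters and not a measured binding site. The windows of 5 genes are shown, those that held both elements and were lowest by the smallest of their 3 daily differences. In Mki67 a CHR and a CCAAT box overlap by 1 base. They read 5′ to 3′ on the gene's strand up to the base before the start, with both elements in capitals.
Mki67, at chr1:199952594-199952843 on the minus strand: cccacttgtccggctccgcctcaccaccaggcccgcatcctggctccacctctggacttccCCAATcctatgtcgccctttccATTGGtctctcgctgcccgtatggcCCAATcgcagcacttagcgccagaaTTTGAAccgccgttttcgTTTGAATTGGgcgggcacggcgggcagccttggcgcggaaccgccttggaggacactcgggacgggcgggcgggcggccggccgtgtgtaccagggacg
Prc1, at chr1:143659231-143659480 on the plus strand: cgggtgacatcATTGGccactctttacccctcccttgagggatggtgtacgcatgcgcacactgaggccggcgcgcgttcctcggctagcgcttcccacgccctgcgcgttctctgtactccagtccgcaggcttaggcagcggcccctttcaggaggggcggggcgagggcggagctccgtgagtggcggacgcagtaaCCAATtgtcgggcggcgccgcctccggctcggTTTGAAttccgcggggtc
Top2a, at chr10:84473094-84473343 on the minus strand: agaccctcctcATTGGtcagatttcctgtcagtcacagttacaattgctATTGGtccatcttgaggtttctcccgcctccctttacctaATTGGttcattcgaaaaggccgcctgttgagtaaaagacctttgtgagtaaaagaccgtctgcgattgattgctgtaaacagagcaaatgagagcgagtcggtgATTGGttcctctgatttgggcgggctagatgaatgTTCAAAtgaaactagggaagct
Hmmr, at chr10:25665216-25665465 on the minus strand: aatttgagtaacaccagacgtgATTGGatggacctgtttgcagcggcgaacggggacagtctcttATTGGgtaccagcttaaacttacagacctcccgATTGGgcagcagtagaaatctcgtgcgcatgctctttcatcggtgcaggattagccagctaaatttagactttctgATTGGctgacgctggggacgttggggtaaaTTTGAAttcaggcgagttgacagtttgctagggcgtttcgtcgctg
Cdk1, at chr20:19265043-19265292 on the plus strand: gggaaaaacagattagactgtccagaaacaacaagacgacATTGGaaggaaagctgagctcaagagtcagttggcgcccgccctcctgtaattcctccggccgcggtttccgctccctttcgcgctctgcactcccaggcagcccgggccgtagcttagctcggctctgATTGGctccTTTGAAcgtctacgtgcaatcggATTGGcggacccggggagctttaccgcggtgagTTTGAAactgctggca
Hmmr, which encodes a spindle-associated hyaluronan receptor, was at 277, 423 and 429 without treatment and 178, 319 and 318 with cyclosporine, lower on each day (-0.46 ± 0.11).

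Genes of DNA replication divided into members that were lower and members that were level. Of 39 genes 35 had a probe set, all 35 passed the filter, and 26 had a lower 3-day mean. The median was -0.18, with -0.24, -0.17 and -0.16 on days 1, 3 and 7. At least 0.3 lower on all 3 days were 6 of 35, against 2.62% of all genes, 14 had an unadjusted p below 0.05 in that direction, and 0 passed after adjustment. Ccne2, the cyclin E2 that starts S phase, was at 182, 297 and 288 without treatment and 110.4, 190.4 and 184 with cyclosporine. Its 3 same-day differences were nearly equal (-0.65, -0.60 and -0.60), with a mean of -0.62 ± 0.12, which was -0.35 as the median over its probe sets. Tyms, thymidylate synthase, was at 182, 314 and 341 untreated and at 95.4, 216 and 229.9 treated (-0.62 ± 0.13), and Uhrf1, which copies DNA methylation after replication, was at 432, 792 and 652 untreated and at 319, 552 and 417 treated (-0.52 ± 0.11). Both were lower on every day. The licensing helicase Mcm7 instead was at 2233, 2824 and 2579 untreated and at 2532, 2939.7 and 2609 treated, a mean difference of 0.08 ± 0.07, and the clamp loader subunits Rfc2 (0.13 ± 0.07) and Rfc5 (0.15 ± 0.06) lay on the higher side on each day. Pcna, the sliding clamp, was at 6138, 7041 and 6474 untreated and at 5194, 6401 and 6085 treated, a difference of -0.16 ± 0.06.

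Other cells' transcripts moved with some of these days. The summed signal of the 8 plasma cell genes was 16862, 25367 and 9287 without treatment and 8679, 12383 and 8832 with cyclosporine, and that of 16 erythroid genes was 57070, 25656 and 39877 against 30027, 26670 and 32712. The monocyte and macrophage sum was lower with cyclosporine on every day, as the mitosis median was, at 134894, 115069 and 98745 without treatment and 90388, 96959 and 76616 with it. The erythroid sums were near each other on day 3, and the plasma cell sums on day 7. Over the T cell receptor genes the sums were 99082, 122199 and 131542 against 128514, 126153 and 131823. The part of these cells in the mitosis difference was not tested.

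The machinery that cyclosporine acts on differed little between the groups. Of 27 genes for calcineurin, NFAT factors and drug-binding proteins 23 had a probe set and 20 passed the filter, and the median difference was 0.04. None of the 23 was at least 0.3 higher or lower on all 3 days, and none passed the test (2, Nfatc1 and Fkbp1a, had an unadjusted p below 0.05). Ppp3cb, the calcineurin catalytic subunit A beta, was at 3528, 3500.4 and 3658 without treatment and 3668, 3804 and 3527 with cyclosporine. The groups overlapped, with a mean difference of 0.04 ± 0.09. Nfatc1, an NFAT factor of activated lymphocytes, was at 2410.1, 2289.9 and 2180.3 untreated and at 2610.1, 2563 and 2476 treated, higher on each day by a small amount (0.15 ± 0.06). Fkbp1a, the immunophilin that binds tacrolimus and not cyclosporine, was at 4093, 4744 and 4932 untreated and at 5465, 5125 and 5224 treated (0.20 ± 0.07). Rcan1, an inhibitor of calcineurin whose transcription NFAT raises, was the member with the lowest tested mean, at 2642, 1896 and 1705 untreated and at 1637, 1708 and 1347 treated. It was lower on each day (-0.69, -0.15 and -0.34), with a mean of -0.39 ± 0.21 (adjusted p = 0.508).

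Genes that NFAT helps to induce had no common direction. Of 39 such genes 33 had a probe set and 24 passed the filter, with a median difference of 0.06 and daily medians of 0.15, -0.04 and 0.11. On all 3 days 7 of the 33 were higher and 3 were lower, where 23% and 16% of all genes were. At least 0.3 lower on each day was 1 (Il10), against 2.62% of all genes, and 0 were called. The genes for interleukins 2, 3, 4, 5 and 13 and for GM-CSF (Csf2) did not pass the filter, so they were not tested. Il2, the T cell growth factor, was listed at 57.5, 104 and 125 without treatment and 98.4, 112 and 144 with cyclosporine. Il2ra, the alpha chain of its receptor and a marker of activation, was at 403, 599 and 502 untreated and at 505, 569 and 529 treated, with overlapping groups and a difference of 0.11 ± 0.11. Ifng, interferon gamma, was at 29.5, 114 and 178 untreated and at 166, 187 and 159 treated. The untreated day 1 value was the low one, and the mean difference of 0.83 ± 0.44 (adjusted p = 0.499) became 0.25 ± 0.27 without day 1. The untreated arrays of days 1 and 3 were below the bar of the filter. The 3-day mean was 1.00 with a constant of 1 and 0.56 with a constant of 64.

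Among these genes, Cd40lg, the CD40 ligand through which helper T cells reach B cells and dendritic cells, was higher with cyclosporine on each day. Its intensities were 702, 918 and 964 without treatment and 1210.2, 1169 and 1132 with cyclosporine, so that the groups did not overlap, and the mean difference was 0.45 ± 0.14 (adjusted p = 0.369). Xcl1, a chemokine of cytotoxic lymphocytes, was at 924, 1165 and 1479 untreated and at 1223, 1387 and 1896 treated (0.33 ± 0.10), also higher on each day. Of the 14 members with a lower mean, the lowest were Il10, an anti-inflammatory cytokine, Gadd45b, a stress-induced regulator of MAP kinase signalling, and Nr4a3, an orphan nuclear receptor (-0.33 ± 0.13). Il10 was at 136, 139 and 38 without treatment and 18.1, 40.9 and 21.4 with cyclosporine and did not pass the filter. Gadd45b was at 524, 418 and 237 untreated and at 246, 222 and 209 treated, with a mean of -0.70 ± 0.19 (adjusted p = 0.362). All 3 differed less on day 7 than on days 1 and 3.

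Immediate early genes, which a fresh receptor signal or handling of cells induces within minutes, had a median difference of 0.02 over 26 measured members, 21 of which passed the filter. Their daily medians were -0.05, -0.02 and 0.13, and none of the 26 was at least 0.3 higher or lower on all 3 days. Dusp1, a phosphatase that switches off MAP kinases, was at 2075, 1534 and 818 without treatment and 536, 575 and 886 with cyclosporine. It was lower with cyclosporine on days 1 and 3 and level on day 7, so its 3-day mean of -1.07 ± 0.34 rests on the first days. Fos, Jun and Junb, parts of the AP-1 factor, followed the same order with smaller sizes: their daily differences were -0.48, -0.61 and 0.36 for Fos, -0.55, -0.40 and 0.17 for Jun and -0.58, -0.41 and 0.14 for Junb. Egr1 was at 1757, 1778 and 1604 untreated and at 1821, 2379 and 1684 treated, with overlapping groups (0.18 ± 0.12). Klf2, a factor of resting and recirculating T cells, was higher on each day, at 7469.7, 6498 and 7111 untreated and at 7927, 8490.1 and 8105 treated (0.22 ± 0.07).

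Genes of the T cell receptor complex and its proximal signalling were higher with cyclosporine on day 1 and level afterwards. Of 27 genes 24 had a probe set and all 24 passed the filter, with a median difference of 0.50 on day 1, 0.04 on day 3 and 0.00 on day 7. On all 3 days 10 were higher and 3 lower, where 23% and 16% of all genes were, and 0 of the 24 were 0.3 or more apart on each day in either direction. Cd3d was at 5656, 7505 and 8237 without treatment and 8497, 8557 and 9639 with cyclosporine, higher on each day (0.33 ± 0.09, and 0.21 ± 0.06 without day 1). Cd8a, the coreceptor of cytotoxic T cells, was at 4528, 5998 and 7347 untreated and at 7008, 6606 and 7727 treated, while Cd4, the helper coreceptor, which macrophages of the rat also express, was at 977, 943 and 809 untreated and at 799, 897 and 722 treated. The first was higher and the second lower on each day, with means of 0.28 ± 0.11 and -0.17 ± 0.10. The neutrophil and B cell sums of the untreated day 1 array, given above, were high on the day when this list differed, and their part was not tested.

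Cytotoxic and natural killer genes were on the higher side with cyclosporine on days 1 and 3. Of 21 measured genes 17 had a higher 3-day mean, as did 8057 of all 14217 genes, and 13 were higher on all 3 days (23% of all genes). The list's medians were 0.34, 0.30 and 0.01 on days 1, 3 and 7. None was at least 0.3 higher on all 3 days, where 0.549% of all genes were, 2 (Gzmf and Klrb1b) were at least 0.3 higher on days 3 and 7 (2.1% of all genes), and 0 were called. No untreated or treated array of Gzmf was above the bar of the filter on low signal. Its size thus depends on the constant added before the log, with a 3-day mean of 0.38 at a constant of 1 and 0.19 at 64. Klrb1a, an NKR-P1 receptor of natural killer cells, was at 2802, 2295 and 4493 without treatment and 3914, 3835 and 5175 with cyclosporine. It was higher on each day, with overlapping groups and a mean of 0.47 ± 0.12 (adjusted p = 0.343). Gzmm, a granule protease, was at 3465, 3649 and 6754 untreated and at 5024, 5383 and 8013 treated (0.45 ± 0.11), and Eomes, a transcription factor of cytotoxic lymphocytes, was at 791, 802 and 1431 untreated and at 1123, 1130.4 and 1577 treated (0.37 ± 0.10). Ncr1, the receptor NKp46, was at 632, 454 and 917 untreated and at 814, 827 and 1085 treated (0.48 ± 0.15). Gzma, granzyme A, went the other way on days 1 and 7, at 894, 621 and 2500.4 untreated and at 598, 724 and 1528 treated, while Gzmb (0.10 ± 0.09) and Prf1, perforin (0.15 ± 0.09), differed little.

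**Figure D4:**
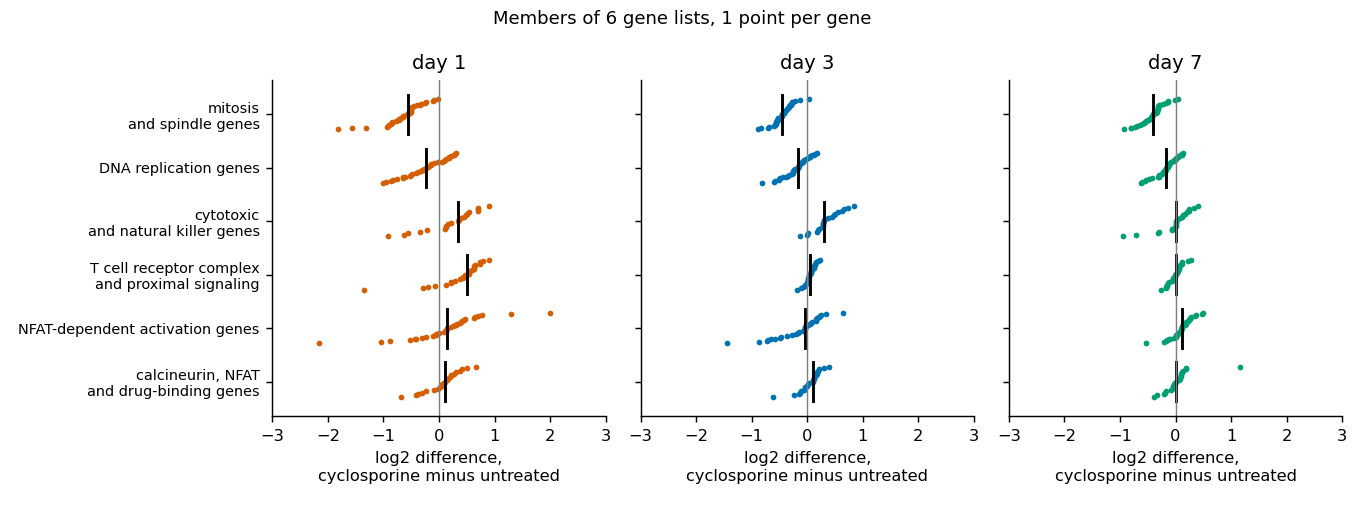
Log2 difference, cyclosporine minus untreated T cells, of every measured member of 6 gene lists on days 1, 3 and 7; each point is 1 gene, points within a list are ordered by value and the black bar is the list's median. Mitosis genes lie left of 0 on each day with medians of -0.55, -0.45 and -0.41, T cell receptor genes lie right of 0 on day 1 with a median of 0.50, and NFAT-dependent genes spread to both sides.

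Among helper, regulatory and checkpoint genes the largest consistent value was that of Maf, a factor of interleukin 4, interleukin 10 and interleukin 21 producing T cells and of macrophages. Maf was at 2163, 2328 and 2113 without treatment and 1673, 1669 and 1351 with cyclosporine, and the groups did not overlap (-0.49 ± 0.10, adjusted p = 0.343; -0.56 ± 0.11 without day 1). Cd200, a ligand that restrains myeloid cells, was at 708, 595 and 589.6 untreated and at 469, 425 and 508 treated, also without overlap (-0.42 ± 0.10), with -0.14 as the median over its probe sets. Over the 14 measured genes of this list the median was -0.06, 1 was at least 0.3 lower on all 3 days (2.62% of all genes) and 0 were called. Naive and recirculating T cell genes had a median of 0.06 over 10 members, with Lef1 at 5921, 6912 and 6775 untreated and at 7870.0, 7793 and 7096 treated (0.22 ± 0.07) and S1pr1, the exit receptor of lymphoid organs, at 0.03 ± 0.06.

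Neutrophil transcripts were lower with cyclosporine, by far the most on day 1. Of 30 genes 19 had a probe set, all 19 had a lower 3-day mean and 11 were lower on all 3 days (16% of all genes). The list's median, however, was -3.11 on day 1 against -0.29 on day 3 and -0.37 on day 7. Without day 1 the median of the members' means was -0.28, where it was -1.39 with it, and 6 of the 19 were at least 0.3 lower on both days 3 and 7 (3.93% of all genes). The filter kept 14 of the 19. S100a8, a subunit of the calprotectin of neutrophil cytosol, was at 12964, 663 and 733 without treatment and 237, 297 and 403 with cyclosporine. The untreated day 1 array was the outlying one, but the untreated arrays of days 3 and 7 were also above all 3 treated arrays. Its mean of -2.54 ± 0.92 (adjusted p = 0.396) became -0.98 ± 0.12 (adjusted p = 0.386) without day 1. Csf3r, the receptor for G-CSF, was at 2842, 189 and 166 untreated and at 115, 171 and 140.4 treated, so that its large day 1 difference (-4.45) shrank to -0.18 ± 0.15 on the later days.

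The alpha-defensins kept a large difference on every day. Np4, a neutrophil defensin, was at 986, 188 and 762 without treatment and 46.2, 33.5 and 109 with cyclosporine, and every untreated array was above every treated one. Its 3 treated arrays were below the bar of the filter on low signal (126 to 133 in the 6 arrays), so that the size of the difference depends on the constant added before the log: it was -3.21 with a constant of 1 and -2.29 with a constant of 64. With 16 the mean difference was -2.89 ± 0.39 (adjusted p = 0.284), and -2.34 ± 0.22 without day 1 (adjusted p = 0.22). RatNP-3b, a second defensin, was at 1178, 141 and 713 untreated and at 25.9, 37.9 and 95.9 treated, again without overlap and with all 3 treated arrays below the bar (-3.03 ± 0.53, and -3.40 to -2.36 with the other constants). Defa5 was at 814, 105 and 609 untreated and at 5.62, 3.4 and 59.1 treated; it did not pass the filter, since its signal was above the bar in too few arrays. These are members of 1 gene family with similar sequences, so their probe sets may share signal. Camp, a cathelicidin of granulocyte granules, was at 539, 103 and 244 untreated and at 75.1, 62 and 90.5 treated, also without overlap and with treated arrays below the bar (-1.50 ± 0.43). Anxa1, an annexin abundant in neutrophils, differed mainly on day 1, at 6284, 1142 and 1139.6 untreated and at 976, 1014 and 1261 treated.

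Macrophage transcripts were lower with cyclosporine on the later days as well. All 25 measured genes of a monocyte and macrophage list of 29 had a lower 3-day mean. On all 3 days 17 were lower (16% of all genes), and 9 were at least 0.3 lower on each (2.62% of all genes). The medians were -0.72, -0.28 and -0.32 on days 1, 3 and 7, and 10 members were at least 0.3 lower on days 3 and 7 (3.93% of all genes). None of the 24 that passed the filter was called. Cd163, the haemoglobin scavenger receptor, was at 2869, 2939 and 2039 without treatment and 1695, 1896 and 1299.9 with cyclosporine, and the groups did not overlap. Its 3 differences were alike (-0.75, -0.63 and -0.64), with a mean of -0.67 ± 0.12 (adjusted p = 0.343). Cd5l, described above, had no overlap either (-0.91 ± 0.19), and Slc40a1, the iron exporter ferroportin, was at 6658, 7143 and 5540.3 untreated and at 5069, 4818 and 3519 treated, lower on each day (-0.54 ± 0.13). Spic, a factor of iron-recycling macrophages of the spleen, was at 2407, 2241 and 1603 untreated and at 1680.4, 1546 and 1095 treated (-0.53 ± 0.21).

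The size of the difference varied among macrophage genes. Cd14, the coreceptor for lipopolysaccharide, had the mean farthest below 0 in the list (-1.36 ± 0.40). It was at 626, 562 and 358 untreated and at 142, 256 and 173 treated, with every untreated array above every treated one. The complement genes C1qa (-0.14 ± 0.11), C1qb (-0.14 ± 0.14) and C1qc (-0.08 ± 0.11) were close to 0, and Tyrobp, an adaptor of myeloid and natural killer cells, was lower on day 1 alone (-0.78, 0.05 and 0.07). Csf1r, the receptor for macrophage growth factor, was at 6872, 3846 and 4093 untreated and at 2750.1, 3301 and 2332 treated, lower on each day and by the least on day 3 (-0.78 ± 0.22). The summed signal of the list was 98745 to 134894 without treatment and 76616 to 96959 with cyclosporine, which do not overlap.

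**Figure D5:**
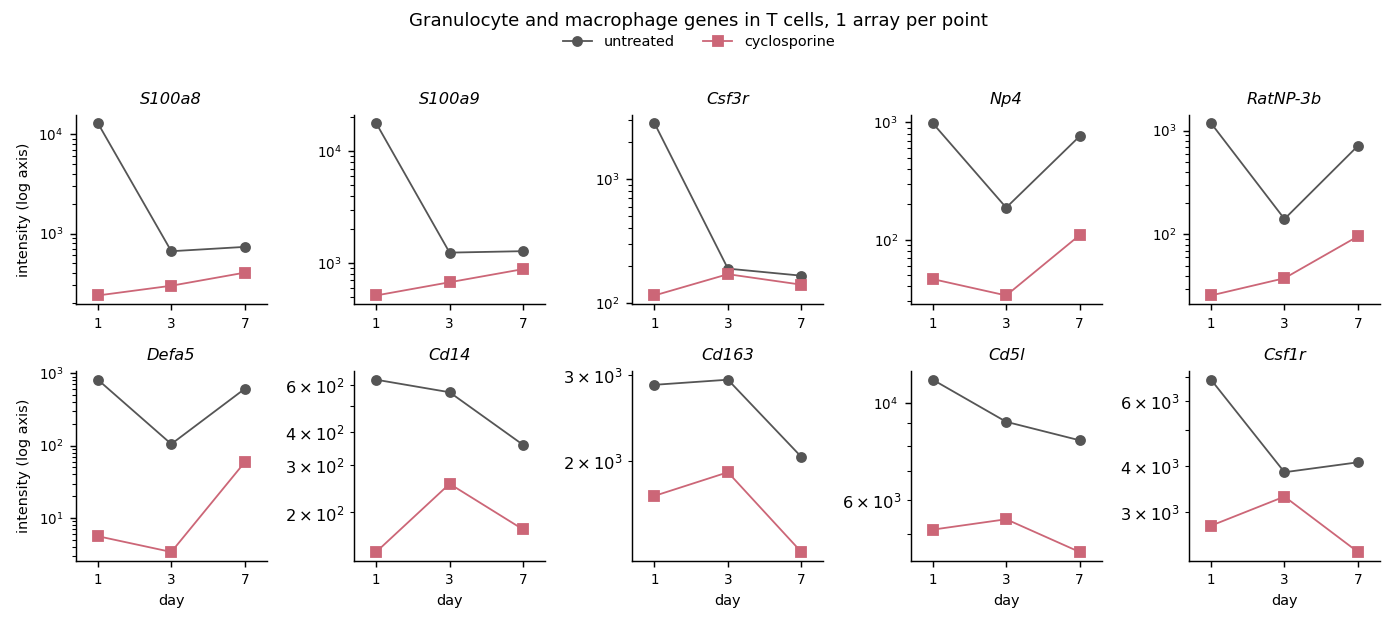
Intensity (log axis) of 6 granulocyte and 4 macrophage genes in T cells on days 1, 3 and 7, with 1 array per point, for untreated (grey circles) and cyclosporine (red squares) recipients; the vertical scale differs between panels. S100a8, S100a9 and Csf3r are far higher in the untreated day 1 array than in any other, the defensins Np4, RatNP-3b and Defa5 are higher without treatment on every day, and so are Cd14, Cd163, Cd5l and Csf1r.

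B cell and MHC class II transcripts were lower with cyclosporine on day 1 and higher on day 3. The 15 measured B cell genes had medians of -1.09 on day 1, 0.39 on day 3 and 0.12 on day 7, and the 11 class II presentation genes had medians of -0.92, 0.34 and 0.02. Without day 1 the B cell median was 0.29, and 4 of the 15 (Cd79b, Blk, Fcrla and Fcmr) were at least 0.3 higher on both later days, where 2.1% of all genes were. Cd79b, a signalling chain of the B cell receptor, was at 7138, 2118 and 2009 without treatment and 2843, 3062 and 2766 with cyclosporine. The treated arrays were nearly level over the days, and it was the untreated array of day 1 that was high and those of days 3 and 7 that were low. RT1-Db1, a class II beta chain, was at 8302, 2907 and 4601 untreated and at 3983, 4017 and 4333 treated, with treated arrays that were again close to each other. Over 3 days its difference was -0.23 ± 0.26, and over days 3 and 7 it was 0.19 ± 0.17. The 9 dendritic cell genes, 6 of which passed the filter, had medians of -0.95, 0.38 and 0.08.

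Plasma cell transcripts were lower with cyclosporine on days 1 and 3 and level on day 7. All 8 measured genes had a lower 3-day mean, with medians of -0.63, -0.94 and -0.03, and none was at least 0.3 lower on all 3 days. Mzb1, a chaperone of antibody assembly, was at 2889.6, 5807 and 1101 without treatment and 1209, 1901 and 1104 with cyclosporine, and Jchain, which joins IgM and IgA chains, was at 6802, 9729 and 3333 untreated and at 2696, 4980.4 and 3048 treated. In both, the untreated day 3 array was the highest and the day 7 arrays of the 2 groups were alike. Their means were -0.95 ± 0.28 and -0.81 ± 0.23. Genes of the unfolded protein response, on which antibody secretion depends, had medians of -0.36, -0.43 and -0.08 over 22 measured members. Of these, 14 were lower on all 3 days (16% of all genes), 14 had an unadjusted p below 0.05 in that direction and 0 were called. Xbp1, a gene of both lists, was at 4158, 4941 and 2296 untreated and at 2233, 2672 and 2165 treated (-0.62 ± 0.17), and the chaperone Hspa5 was at 6084, 7029 and 4849 untreated and at 4726, 4696 and 4130.3 treated, lower on each day (-0.39 ± 0.10).

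Erythroid transcripts were lower with cyclosporine on days 1 and 7. The 16 measured genes had medians of -1.56, 0.06 and -0.81, and 2 (Rhag and Car1) were at least 0.3 lower on all 3 days (2.62% of all genes). Rhag did not pass the filter. It was above the bar in 1 untreated array and 0 treated ones, and on day 3 it was at 36.5 untreated and 21.3 treated. Ahsp, the chaperone of alpha globin, was at 2209.8, 435 and 2733 without treatment and 403, 395 and 1109 with cyclosporine, level on day 3 only. The spread over days was wide, with a mean of -1.28 ± 0.87. Mast cell proteases went the other way on day 7. Mcpt1 was at 432, 302 and 869 untreated and at 386, 372 and 1973 treated, Cma1, chymase, at 233, 95.9 and 300.0 untreated and at 129.7, 137 and 641 treated, and Cpa3, the mast cell carboxypeptidase, at 350.0, 174 and 498 untreated and at 255, 293 and 963 treated. In each the treated day 7 array was the highest of the 6, and 1 array stands behind that value. The day 7 array of cyclosporine plus peptide was at 2028 for Mcpt1, 756 for Cma1 and 915 for Cpa3, also above the untreated day 7 array.

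Inflammatory genes were lower mainly on day 1. The 28 measured acute inflammatory genes had medians of -0.67, -0.23 and -0.06, 18 passed the filter, and 6 were at least 0.3 lower on all 3 days (2.62% of all genes). Il1b, interleukin 1 beta, was at 5322, 1039 and 1219 without treatment and 578, 662 and 983 with cyclosporine, by far the highest in the untreated day 1 array (-1.37 ± 0.52, and -0.47 ± 0.11 without day 1). Il1a, interleukin 1 alpha, had no overlap between groups, with treated arrays below the bar, at 186, 203 and 136 untreated and at 109.5, 99.1 and 91 treated (-0.71 ± 0.14, adjusted p = 0.343), and Icam1, the adhesion ligand of LFA-1, was at 2251, 1375 and 1478 untreated and at 985, 1077 and 1176 treated (-0.62 ± 0.17). Tnf was at 801, 620.0 and 559.6 untreated and at 592, 605 and 642 treated, with overlapping groups (-0.09 ± 0.14). Type I interferon-stimulated genes had a median of -0.10 over 25 members and interferon gamma response genes -0.04 over 23. Of these, 0 and 1 were at least 0.3 lower on all 3 days (2.62% of all genes). That one was Gbp4, a guanylate-binding protein, at 1041, 1229 and 1100.2 untreated and at 811, 934 and 882 treated (-0.35 ± 0.12).

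Housekeeping groups stayed close to the median of all genes. The median difference was 0.05 over 26 ribosomal protein genes, 0.04 over 29 proteasome genes, 0.08 over 31 nuclear genes of oxidative phosphorylation and 0.03 over 15 cholesterol synthesis genes, and none of these lists had a member at least 0.3 higher or lower on all 3 days.

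Single genes were named by the size of the smallest of their 3 same-sign daily differences among genes that passed the filter, 12 in each direction, with none past the test. The higher genes were Prdm16, Podxl2, Cd7, Cldn3, Kcnj11, Vldlr, Lce3b, Hoxc4, Spry2, Tbxa2r, Cel and Mobp. Cd7, a costimulatory molecule of T and natural killer cells, had the lowest adjusted p of the comparison, at 3165, 3065 and 4701 without treatment and 4520.1, 5049 and 7488 with cyclosporine. It was higher on each day, while the groups overlapped because the untreated day 7 array was above the treated day 1 array, and the mean was 0.63 ± 0.06 (adjusted p = 0.167; 0.69 ± 0.05 without day 1). Prdm16, a zinc finger regulator of stem cells and brown fat, was at 147, 145 and 256 untreated and at 251, 339.7 and 499 treated (0.93 ± 0.11), and its other probe set was also higher, by 0.99 on average. Spry2, a feedback inhibitor of receptor tyrosine kinase signalling, was at 333, 404 and 609.7 untreated and at 603, 595 and 826 treated (0.60 ± 0.10), and Tbxa2r, the thromboxane receptor, was at 372, 400.3 and 549.5 untreated and at 797, 645 and 742 treated (0.72 ± 0.13). Vldlr, a lipoprotein receptor, was at 194, 172 and 181 untreated and at 271, 276 and 300.3 treated without overlap (0.59 ± 0.11), with its 3 other probe sets higher by 0.25 to 0.42. Of the weaker ones, Kcnj11, Mobp and Lce3b had other probe sets with means of -0.16 to 0.13, so these genes are uncertain. The untreated arrays of Cldn3, Hoxc4, Kcnj11, Lce3b and Mobp were all below the bar of the filter.

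The lower genes were Np4, Gstt3, RatNP-3b, B3galnt1, Tgm2, Cd14, Siglec5, Hook1, Gcgr, Igfbp7, Parvb and S100a8. Gstt3, a glutathione S-transferase of the theta class, was at 346, 256 and 244 without treatment and 46.6, 45.3 and 56.8 with cyclosporine, and the groups did not overlap. All 3 treated arrays were below the bar of the filter, which the gene passed through its untreated arrays, so the difference of -2.17 ± 0.27 (adjusted p = 0.199) depends on the constant, at -2.48 with 1 and -1.60 with 64. Igfbp7, a secreted protein of vessels and stroma, was at 559, 462 and 357 untreated and at 175, 155 and 189 treated (-1.31 ± 0.20), and Gcgr, the glucagon receptor, was at 1048, 855 and 693 untreated and at 526, 459 and 352 treated (-0.93 ± 0.18). Both lacked overlap. Tgm2, transglutaminase 2, an enzyme abundant in macrophages and endothelium, was at 908, 632 and 517 untreated and at 214, 295 and 251 treated (-1.35 ± 0.26), and Siglec5, a myeloid inhibitory receptor, was at 1941, 687 and 597 untreated and at 284, 256 and 314 treated (-1.66 ± 0.36). B3galnt1 (-1.19 ± 0.20) and Hook1 (-1.03 ± 0.19), whose treated arrays were also all below the bar, and Parvb (-1.07 ± 0.28) completed the set, and 1 of the other probe sets of Parvb was near 0 at -0.11. Just inside the rule stood Mobp at 0.42 and S100a8 at -0.84, and just outside stood Doc2g at 0.41 and Fstl3 at -0.83.

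Without day 1, the 10 largest in each direction added Pou2f3, Cpa3, Aqp5, Srpk3 and Ackr2 among the higher and Matn2, Tmem158, Cpq and Sctr among the lower. Pou2f3 and Tmem158 did not pass the filter of the fit without day 1. The untreated arrays of Aqp5 and Ackr2 and the treated arrays of Cpq were all below the bar of the filter. Of Pou2f3, 1 untreated array was above it, and of Tmem158, 1 treated array. Sctr, the secretin receptor, was at 323, 583 and 315 without treatment and 372, 277 and 153 with cyclosporine, higher on day 1 and lower after it (0.19, -1.03 and -0.97). Matn2, an extracellular matrix adaptor, was at 134, 302 and 239 untreated and at 98.3, 86.8 and 105 treated, with the treated arrays below the bar. Its difference was -1.35 ± 0.33 over days 3 and 7 and -1.03 ± 0.30 over all 3 days. On days 3 and 7 the other probe set of Ackr2 was lower, and that of Srpk3 was higher by 0.03 and 0.11. Those of Pou2f3 and Tmem158 kept the direction of their genes on both of these days.

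Single days were also set side by side, 1 array against 1 array, which has no replicate check. On day 1, Dnmt3b, a de novo DNA methyltransferase, was at 88.1 without treatment and 371 with cyclosporine, and Ccr4, a chemokine receptor of helper and regulatory T cells, was at 146 and 439. On days 3 and 7 their differences were -0.18 and 0.03 for Dnmt3b and -0.43 and 0.23 for Ccr4, and in both the untreated day 1 array was the lowest of the 6. The largest lower differences of day 1 were S100a8, Chi3l1, Defa5, Fcnb, S100a9, RatNP-3b, Lilrb4 and Pglyrp1, genes of granulocytes and monocytes. Of these, Chi3l1, Fcnb and Lilrb4 did not keep the direction on day 3. The largest lower differences of day 3 were, in order, those of Prss3, Gstt3, Prss3bl1, Matn2, Mzb1, Eaf2, Sdc1 and Aebp1, with Prss3, a trypsin, at 1845 and 276. Those of day 7 were led by the 3 defensins, followed by Rhag, a red cell membrane gene, at 505 and 90, the treated value being below the bar of the filter. The defensins, S100a8 and Gstt3 were lower on the other days too, as given above.

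Whether the difference shifted with time was tested as its slope on log2(day), and this slope passed for 0 of 19464 probe sets (0%), while 1486 were below 0.05 before adjustment, where 5% is 973.2. The gene with the lowest adjusted p, chosen after its values were seen, was Upp1, the uridine phosphorylase, at 1569, 535 and 261 without treatment and 126, 191 and 298 with cyclosporine. Its untreated level was highest on day 1 and lowest on day 7, and its treated level ran the other way, a slope of 1.30 ± 0.08 per doubling of the day (adjusted p = 0.0538). It passed with no filter on low signal (adjusted p = 0.0483), with quantile normalization over 18 arrays (0.0471), with centring on array medians (0.0254) and with a constant of 64 in place of 16 (0.0387), all by limma. Its highest value, like those of the neutrophil genes, was in the untreated day 1 array, and the part of neutrophil RNA in it was not tested.

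T cells of recipients that received the peptide with cyclosporine differed from those with cyclosporine alone at 0 of 19464 probe sets (0%; 857 had an unadjusted p below 0.05, where 5% is 973.2). Both treated groups share the untreated arrays, so their differences from untreated are given side by side and not compared. The mitosis list had a median of -0.46 for cyclosporine over its 35 members. Over the 33 tested members it was -0.15 for cyclosporine plus peptide, and the direct difference between the treated groups had a median of 0.33. By day, the medians against untreated were -0.55, -0.45 and -0.41 with cyclosporine and -0.03, -0.42 and -0.12 with the peptide. Mki67 was at 484, 972 and 849.7 with cyclosporine and 755, 888 and 986 with the peptide, a direct difference of 0.24 ± 0.13 (adjusted p = 0.888), and Ube2c, a ubiquitin-conjugating enzyme that works with the anaphase-promoting complex, was at 568, 1203 and 1323 and 904, 1447 and 1716 (0.43 ± 0.12, adjusted p = 0.888). For Mki67 the peptide array was lower on day 3 and higher on days 1 and 7, and for Ube2c it was higher on each day. Over tested members the direct difference had a median of -0.01 for monocyte and macrophage genes and 0.35 for neutrophil genes. By day, the macrophage medians against untreated were -0.98, -0.40 and 0.06 with the peptide and -0.72, -0.28 and -0.32 with cyclosporine. The macrophage sum on day 7 was 98358 with the peptide, 76616 with cyclosporine and 98745 untreated. The neutrophil medians were -3.15, 0.03 and -0.05 with the peptide and -3.11, -0.29 and -0.37 with cyclosporine. Cldn3, a tight junction protein, was at 188, 175 and 181 with cyclosporine and 123, 100.2 and 93.8 with the peptide, close to the untreated 129.7, 119 and 99.8.

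The same mitosis genes were measured in the grafts of cyclosporine-treated and untreated recipients. Their median difference in heart was 0.66, -0.34 and -0.13 on days 1, 3 and 7, against -0.55, -0.45 and -0.41 in T cells. Mki67 differed by 1.14, -0.35 and -0.13 in heart on days 1, 3 and 7, and Cdk1 by 0.69, -0.37 and -0.10. The heart medians were thus above 0 on day 1 and below 0 later, where those of T cells were below 0 throughout. None of these genes passed the test of the difference between tissues (for Mki67 -0.98 ± 0.31, adjusted p = 0.341). Over all 22327 probe sets tested, the test of the difference between tissues called 1 (0.00448%), with 2282 at an unadjusted p below 0.05, where 5% is 1116.35. That probe set was for Mgll, monoacylglycerol lipase, at 86.6, 69.5 and 101 in untreated and 24.2, 17.3 and 35.9 in treated T cells, and at 1395, 1181 and 425 in untreated and 1319, 1152 and 520.1 in treated hearts. The T cell difference minus that in heart was -1.35 ± 0.15 (adjusted p = 0.0272 by limma). All 6 T cell values were below the bar of the filter, which the gene passed through the heart arrays, so the size in T cells is uncertain, and the call was lost with centring on array medians and with a constant of 64 added before the log.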

How the data were processed

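Expression was measured on single-colour rat arrays of biotin-labelled cRNA, 1 array for each tissue, treatment and day (18 in all, 9 of T cells). The deposited values are linear intensities per probe set, 771 of them below 0; how the authors scaled them is not given in the sources used here. Values were set to at least 0, 16 was added and log2 taken. Probe sets above the 40th percentile of their array in at least 3 arrays of a fit were tested with limma (version 3.58.1, R 4.3.3), treatment and day as factors and the trend option of eBayes, with Benjamini-Hochberg adjustment over all probe sets tested. The 9 T cell arrays shared 1 fit with 4 residual degrees of freedom, and 2 without day 1. The slope on log2(day) was a separate fit of the 9 arrays, with 2. The test between tissues was a fit of all 18 arrays, with 8. The number of arrays limits the precision. Pairs of arrays with identical values numbered 0. The step was tested on simulated data with independent normal errors around the fitted model. Those data held no outlying array, so they do not show how the fit handles the untreated day 1 array.

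Of 31042 probe sets that are not controls, 20826 had 1 gene symbol, 436 several and 9780 none in the platform annotation, and only those with 1 are named. A gene with several stands for the probe set of highest mean over 18 arrays (14217 genes). Named genes are the 12 per direction with the largest smallest-of-3 same-sign difference among genes tested (10 on days 3 and 7), and 8 per direction for a single day at an intensity of at least 200.0. The 34 gene lists and the samples compared were chosen with earlier results of these data known. Alternatives were other filters, scalings, constants, arrays left out, no day factor and no trend. The alternatives for the fit without day 1, and the medians over tested members, were chosen after seeing the data. Promoter windows are from RefSeq (GRCr8).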

Additional observations from a re-analysis of the deposited data

Results flagged for a closer look

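The cyclosporine difference of Mgll, monoacylglycerol lipase, passed a test between tissues: that in T cells minus that in heart was -1.35 (limma, adjusted p = 0.0272). Mgll was lower with cyclosporine in T cells on 3 of 3 days. All 6 T cell values were below the bar of the filter on low signal, the call was lost with median centring and with a constant of 64, and the cause was not tested.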

How the results depend on the processing

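For cyclosporine against untreated T cells over 3 days, 0 probe sets passed under each alternative run, with 1336 to 3007 at an unadjusted p below 0.05. Without day 1, 2 of 18906 passed with median centring and 19 of 18256 with 4 arrays only, and the cause was not tested. The tissue difference gave 0 with median centring and with a constant of 64, and 3 (Rpl3l, Mgll and Nr2f2) with a constant of 1. The slope on log2(day) gave 1, Upp1, with no filter, with quantile normalization over 18 arrays, with median centring and with a constant of 64. Day was the block in all of these fits but the one without a day factor. Genes at least 0.3 lower on all 3 days numbered 238 to 444 (372 in the main setting) and those higher 20 to 144 (78), over other scalings and constants. Of the mitosis genes, 16 with median centring and 23 with a constant of 1 did so (22). Turns of sign were counted only for named genes that passed the filter. Among these, the differences of 17 turned sign when 1 day was left out: over the 3 such settings they ran from -0.076 to 0.58 for Blk, -0.16 to 0.00509 for C1qc, -0.10 to 0.86 for Ccr4, -0.43 to 0.49 for Cd79b, -0.16 to 0.75 for Cma1, -0.077 to 0.96 for Dnmt3b, -0.47 to 0.45 for Fcmr, -2.95 to 0.29 for Fcnb, -0.39 to 0.33 for Fcrla, -0.11 to 0.42 for Klrb1b, -2.64 to 0.00423 for Lilrb4, -0.56 to 0.31 for Ms4a1, -0.57 to 0.19 for RT1-Db1, -0.015 to 0.068 for S1pr1, -0.083 to 0.00663 for Stmn1, -0.23 to 0.079 for Tnf and -0.36 to 0.062 for Tyrobp. Other settings that turned a sign in named genes that passed the filter gave -0.016 for Ackr2 with the median over its probe sets, -0.021 for Kcnj11 with the median over its probe sets and 0.015 for Stmn1 with median centring. Genes at low signal are limited by the filter, and each day by its single array per group.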

Other observations

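The list of mast cell, basophil and eosinophil genes had a median difference of 0.06 over 14 measured members. Epx, eosinophil peroxidase, was at 240.1, 98.3 and 106 on days 1, 3 and 7 without treatment and 76.2, 76.6 and 77.4 with cyclosporine, and Prg2, the eosinophil major basic protein, was at 1329.6, 190.0 and 432 and 172, 143 and 268. These 2 of the 14 were at least 0.3 lower on all 3 days, where 2.62% of all genes were, and the treated arrays of Epx were below the bar of the filter on low signal. Eng, a TGF-beta coreceptor of endothelium and some macrophages, was the 1 of 22 endothelial and stromal genes at least 0.3 lower on all 3 days (2.62% of all genes), at 300.1, 189.7 and 224 and 160.4, 151 and 147 (-0.57 ± 0.19), while that list's median was -0.08. Among 19 glucocorticoid-responsive genes Tgm2 and Cebpd, an inflammatory C/EBP factor, were (2.62% of all genes), with Cebpd at 883, 237 and 212 and 148, 115 and 145 (-1.30 ± 0.63) and a list median of -0.12.

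The other lists had median differences of -0.09 for 17 chemokine receptor and homing genes, -0.06 for 24 glycolysis and hypoxia genes, -0.19 for 11 platelet genes, 0.03 for 17 heat shock genes, 0.09 for 16 circadian clock genes, 0.02 for 24 JAK, STAT and cytokine feedback genes and 0.05 for 15 heart muscle genes. None of these 7 lists had a gene at least 0.3 higher or lower on all 3 days.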
